A study of Mus musculus with 2688 samples.

Results

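The cells described here are microglia sorted from the corpus callosum, the largest tract of myelinated fibres between the hemispheres, of CD1 mice at 3 weeks and at 16 weeks of age. They were taken by their labels: every well labelled corpus callosum, 190 wells in 3 replicates at 3 weeks and 190 wells in 4 replicates at 16 weeks, with at least 500 detected genes and at most 20% mitochondrially encoded counts. This kept 327 of the 2402 wells kept in the whole series, 179 of 3 weeks (59, 62 and 58 per replicate) and 148 of 16 weeks (37, 38, 37 and 36). All mice were wild type, untreated as far as the labels say, and of the same outbred strain. Cells had been isolated from perfused tissue on a Percoll gradient, stained for CD11b, CD45, Ly6C, Ly6G and CD206, and sorted singly into plates, and full-length cDNA had been sequenced by SmartSeq2. The series design speaks of 3 to 4 replicate mice per region and age and of several regions taken from the same mice. The counts of the kept wells of 1 replicate were summed, and this sum is called a sample below.

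Microglia are the macrophages that reside in brain and spinal cord tissue. In the mature brain they hold a surveying, homeostatic state that depends on TGF-beta and on the receptor CSF1R, with P2ry12, Tmem119 and Cx3cr1 among its markers. In developing white matter, while oligodendrocytes wrap axons, some microglia take up myelin and cell debris and express genes of lipid handling, Apoe and Lpl among them. The period from weaning to adulthood is when the corpus callosum gains most of its myelin, and the comparison asks how its microglia differ between these ages.

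Between the ages, 4 genes differed in the share of cells in which they were read, once every well had been reduced to the same number of reads. Cwc22, a splicing factor gene, fell from 73.1% of wells to 7.94%, and Sh3bp1, which encodes a regulator of small GTPases at the actin cortex, fell from 72.3% to 40.1%. Reads of Srgn, the gene of serglycin, a proteoglycan of secretory granules, rose from 16.7% to 51.7%, and those of Tnfsf13b, the gene of the B cell survival factor BAFF, from 3.46% to 26.4%. Cwc22 passed under every alternative of this test that was run, while Srgn, Tnfsf13b and Sh3bp1 did not pass at a higher common depth. In the summed counts no gene passed. The most abundant of the genes with small p there, Cst3, had 45256 ± 1853 CPM (counts scaled to a common library size; SD, n = 3) at 3 weeks and 31415 ± 2522 (n = 4) at 16 weeks, and the lipid carrier gene Apoe 2922 ± 80.0 and 681 ± 387. The log2 changes of the markers P2ry12, Tmem119 and Cx3cr1 from 3 to 16 weeks were at most 0.06 in size. Their signs differed between processing choices.

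The promoters of 5 of these genes are shown because the results turn on them: the 3 with an entry among those whose share changed, and Apoe and Cst3. Each runs from 250 bases before to 50 after the RefSeq transcription start on GRCm38.p6, 5′ to 3′ on the gene's strand. Srgn is at chr10:62527396-62527695 on the minus strand, Tnfsf13b at chr8:10006217-10006516 on the plus strand, and Cwc22 at chr2:77946307-77946606, Apoe at chr7:19699139-19699438 and Cst3 at chr2:148875463-148875762 on the minus strand. The Cst3 entry starts 180 bases from the gene start in the deposited table. Capitals mark matches, on either strand, to GAGGAA (other strand TTCCTC), the core that PU.1, a transcription factor of macrophages, binds, to CACGTG, the E-box of lysosomal gene regulators, and to TATAAA (other strand TTTATA), the TATA box.
Srgn: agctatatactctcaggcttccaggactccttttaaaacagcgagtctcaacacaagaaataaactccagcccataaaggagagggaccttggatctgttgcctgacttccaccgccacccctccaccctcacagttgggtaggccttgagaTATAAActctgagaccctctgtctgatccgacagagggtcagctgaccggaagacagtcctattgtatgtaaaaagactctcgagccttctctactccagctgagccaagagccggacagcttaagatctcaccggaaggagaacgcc
Tnfsf13b: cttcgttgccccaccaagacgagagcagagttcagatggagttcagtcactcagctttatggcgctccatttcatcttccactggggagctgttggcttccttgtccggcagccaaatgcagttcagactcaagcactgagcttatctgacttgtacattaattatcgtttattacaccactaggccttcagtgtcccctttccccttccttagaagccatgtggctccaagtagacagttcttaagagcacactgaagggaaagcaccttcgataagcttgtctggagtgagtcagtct
Cwc22: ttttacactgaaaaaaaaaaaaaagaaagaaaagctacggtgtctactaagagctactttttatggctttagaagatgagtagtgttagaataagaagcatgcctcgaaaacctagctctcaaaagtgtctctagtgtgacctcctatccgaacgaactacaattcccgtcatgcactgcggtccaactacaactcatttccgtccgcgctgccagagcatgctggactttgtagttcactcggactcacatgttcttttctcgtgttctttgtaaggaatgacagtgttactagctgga
Apoe: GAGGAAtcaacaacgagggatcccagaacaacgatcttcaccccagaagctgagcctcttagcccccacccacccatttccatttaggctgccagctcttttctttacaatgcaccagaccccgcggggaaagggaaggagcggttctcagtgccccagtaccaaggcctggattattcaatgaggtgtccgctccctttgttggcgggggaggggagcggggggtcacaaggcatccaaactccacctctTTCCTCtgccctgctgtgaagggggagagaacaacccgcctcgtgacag
Cst3: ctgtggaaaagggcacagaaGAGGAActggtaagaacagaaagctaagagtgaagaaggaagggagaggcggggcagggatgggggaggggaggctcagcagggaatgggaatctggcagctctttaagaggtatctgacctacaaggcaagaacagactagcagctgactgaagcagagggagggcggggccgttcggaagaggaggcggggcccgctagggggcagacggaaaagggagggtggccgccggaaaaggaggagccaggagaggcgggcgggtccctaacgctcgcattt
Apoe held 2 matches to GAGGAA and Cst3 held 1, against 28.3% of 32851 mouse promoters of the same length with at least 1. Srgn held 1 match to TATAAA, as 13.6% of promoters did. The E-box was in none of the 5 and in 7.15% of all. A match is a run of letters and not a measured binding site.

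The 3-week samples held 14940696 to 21508927 counts and the 16-week samples 5509588 to 8088859. All 3-week corpus callosum wells lay on 1 plate and all 16-week wells on another, so age and plate cannot be told apart in what follows. A median well held 300572 ± 69306 gene counts at 3 weeks and 169737 ± 42425 at 16 weeks, and 94.2% ± 2.4 and 77.9% ± 1.0 of the sorted wells were kept (both exact permutation p = 0.0286, two-sided, the smallest that 35 splits allow, and 0.0667 adjusted over 7 measures). At 54941 reads a median well showed 2414 ± 116 and 2161 ± 191 genes (exact permutation p = 0.1143). Mitochondrial counts made up 1.84% ± 0.34 and 1.95% ± 0.39, and spike-in RNA 0.181% ± 0.040 and 0.248% ± 0.017 of all counts (exact permutation p = 0.6857 and 0.0571). The 4 blank wells of the 3-week plate held 3180 to 20404 counts and those of the 16-week plate 10 to 71. On the 3-week plate 2 of the 4 had at least 500 genes, the number asked of a kept well, and on the 16-week plate 0 of 4. All 8 lay below the 54941 reads asked of a well in the share test. At equal numbers of wells, 27 per sample, the samples of 3 weeks had Spearman correlations with each other of 0.713 to 0.730 across 9334 genes, those of 16 weeks of 0.633 to 0.662, and samples of different ages of 0.658 to 0.693. The part of depth, wells kept and blank reads in the results below was not tested, except where a value is given.

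The label was checked against markers. All 10 microglia identity genes were read in every sample, with summed levels of 70750 to 76198 CPM at 3 weeks and 64973 to 77475 at 16 weeks. Among the antigens of the sort, Itgam (CD11b) and Ptprc (CD45) were present, Ly6c1 and Ly6c2 had no read in 81905847 counts, which allows up to 0.0366 CPM, Ly6g reached at most 1.90 CPM and Mrc1 (CD206) at most 9.5. The 14 border macrophage genes summed to 179 to 221 CPM at 3 weeks and 72.7 to 232 at 16 weeks, mostly from Stab1 at 177 ± 31.9 and 134 ± 84.4. Oligodendrocyte genes summed to 497 to 574 and 340 to 795 CPM, with Olig2 at 0 and Trf, a transferrin gene that macrophages also use, at 308 ± 8.95 and 281 ± 114. Astrocyte genes summed to 185 to 222 and 209 to 360, mostly Slc1a3. Neuron genes stayed at 5.24 to 27.5 and 8.92 to 17.96 CPM, T and NK cell genes at 0.261 to 8.51 and 0 to 13.7, and erythroid genes at 0 to 1.70 and 0 to 23.4. Monocyte genes summed to 38.3 to 49.3 and 4.10 to 47.8 CPM. Higher sums came from the neutrophil list, 493 to 811 and 593 to 1198 CPM, and the B cell list, 593 to 690 and 692 to 1325. Their members Csf3r and Ighm are given further below.

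The summed counts were tested gene by gene with edgeR's quasi-likelihood test. None of 12060 genes had an adjusted p under 0.05 (0.0%), whereas 586 (4.86%) had an unadjusted p under 0.05, 341 higher and 245 lower at 16 weeks. DESeq2 called 75 genes on the same sums, 53 higher and 22 lower. An edgeR fit that shares the spread of all 51 samples of the series called 8, all lower, with Cst3, Sparc, Cwc22, Sh3bp1, Cfl1, Eif4g2 and Ctsf among them. The samples of the ages did not overlap for 922 genes (7.65%), of which 382 (3.17%) were higher at 16 weeks. The median log2 change was 0.06, and the median 95% interval reached 1.98 to either side of a gene's value, or 0.72 for the 1784 genes averaging over 100 CPM. In simulated counts with the same sizes the test found 0 of 50 genes changed 2-fold. It found 9 of 50 changed 4-fold and 24 of 50 changed 8-fold. The test could thus miss a 2-fold change. Some abundant genes had narrower intervals: that of P2ry12 ran from -0.23 to 0.18 in log2, short of a 2-fold change. The genes named below for a small p came from those averaging at least 10 CPM without overlap between the ages. For them the lack of overlap was a condition of being named. The values from the sums describe the genes, and none of them passed.

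Homeostatic genes of high abundance came first among the lower ones. Cst3, the protease inhibitor cystatin C and 1 of the most abundant microglial transcripts, had 45586, 46922 and 43261 CPM in the 3-week samples and 31066, 27980, 33316 and 33298 in the 16-week samples. Every 16-week sample lay below every 3-week sample. The log2 change was -0.53 ± 0.07 (SE; edgeR p = 4.59e-05, adjusted 0.507), and the lower level was spread over the cells: at 54941 reads the median well held 2559, 2423 and 2232 Cst3 reads at 3 weeks and 1530, 1365, 1716 and 1630 at 16 weeks. The blank wells of the 3-week plate together held 782 Cst3 reads, and those of the 16-week plate 4. Sparc, a matrix protein secreted by microglia, had 8062, 8799 and 8727 CPM and then 5301, 5378, 5406 and 6390, again without overlap (log2 -0.60 ± 0.09, edgeR adjusted p = 0.507).

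Lag3, an inhibitory receptor of the CD4 family, had 508, 605 and 646 CPM at 3 weeks and 264, 190, 166 and 288 at 16 weeks. Its log2 change was -1.37 ± 0.23 (edgeR p = 0.000211, adjusted 0.510), and its reads were found in 83.3% ± 8.58 of wells at 3 weeks and 58.0% ± 3.46 at 16 weeks. Crybb1, a crystallin gene of immature microglia, had 164, 205 and 138 CPM and then 84.8, 63.5, 81.5 and 60.7 (log2 -1.22 ± 0.30). Fcrls, an Fc receptor-like marker of microglia, overlapped between the ages: 3867, 4643 and 2542 CPM at 3 weeks and 1231, 1188, 3022 and 1768 at 16 weeks. The third 16-week sample lay above the third 3-week sample. Of the 24 homeostatic genes tested, 6 had an unadjusted p under 0.05 and a lower level (the 5 above and the small GTPase gene Rhob), and 1, the purinergic receptor gene P2ry13, a higher one. None passed, and the list's median log2 change was -0.05 beside 0.06 for all genes. Of all 12060 genes tested, 245 were lower and 341 higher with such a p. The list was drawn up with earlier results of these data known, so its counts only describe it.

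P2ry12, the ADP receptor that steers microglial processes to injury, had 9822, 11295 and 10991 CPM at 3 weeks and 9662, 11460, 10943 and 10009 at 16 weeks. The ages overlapped throughout, and the 95% interval of the log2 change ran from -0.23 to 0.18. For Tmem119, a membrane protein marker of microglia, the interval ran from -0.24 to 0.30 and for the fractalkine receptor gene Cx3cr1 from -0.19 to 0.31. The signs of these 3 log2 changes differ between processing choices. P2ry13 had 3493, 3986 and 3887 CPM and then 4865, 5542, 5142 and 4174, without overlap (log2 0.38 ± 0.12, edgeR adjusted p = 0.865). Csf1r, the receptor on which microglia depend for survival, had 16662, 16444 and 16017 and then 13150, 16767, 13311 and 13002, with the second 16-week sample above all others.

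**Figure D1:**
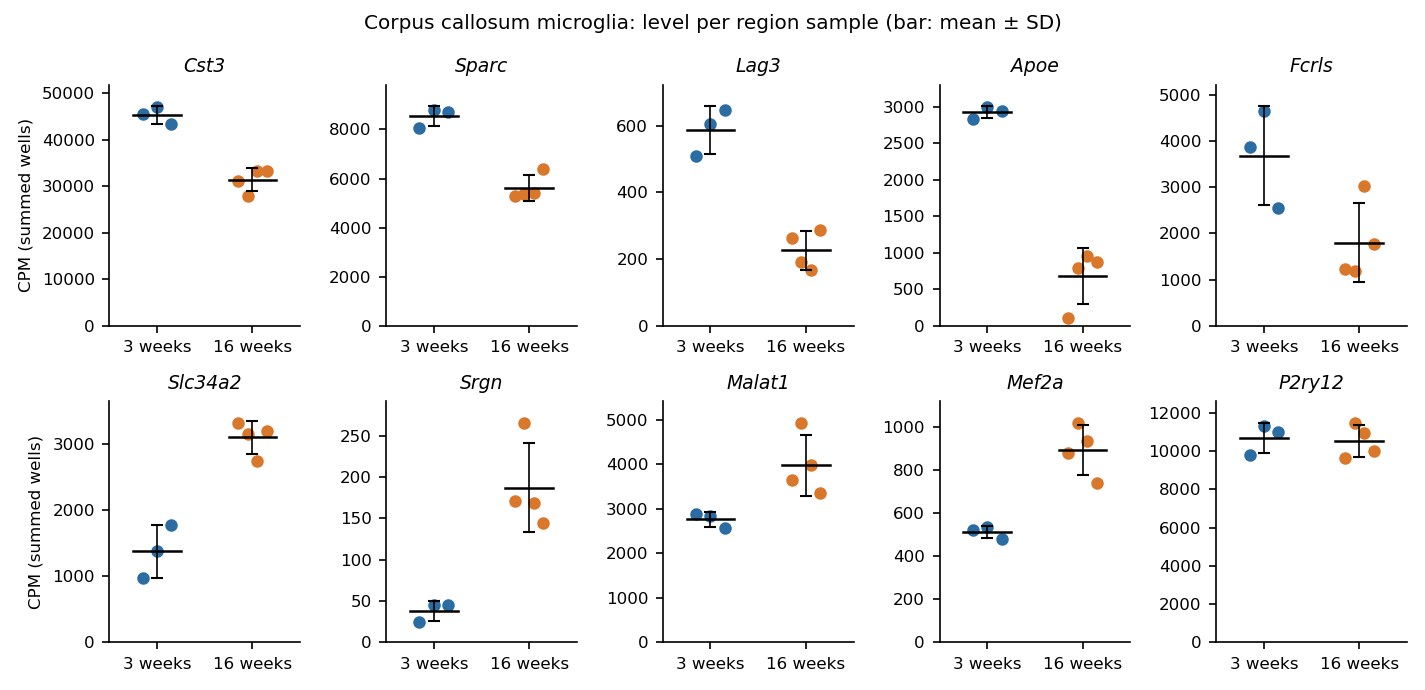
CPM (y axes, linear, from 0) of 10 genes in the 3 samples of 3 weeks and the 4 of 16 weeks; points are samples, and bars the mean and SD. For Cst3, Sparc, Lag3, Apoe, Slc34a2, Srgn, Malat1 and Mef2a the ages do not overlap, for Fcrls and P2ry12 they do.

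Apoe encodes apolipoprotein E, the lipid carrier that macrophages and astrocytes secrete. It had 2835, 2992 and 2940 CPM in the 3-week samples and 109, 787, 956 and 872 in the 16-week samples. The highest 16-week sample was below the lowest 3-week sample, and the first 16-week sample stood far below the other 3. The mean was 4.29 times higher at 3 weeks (log2 -2.10 ± 0.55, edgeR p = 0.00398, adjusted 0.865), and without the first 16-week sample Apoe passed (log2 -1.75, edgeR adjusted p = 0.00606), as it did over all sorted wells (log2 -1.88, adjusted 0.0199). Fewer cells with Apoe RNA and less Apoe RNA per cell cannot be told apart in a sum, so single wells were looked at. At 54941 reads, Apoe was read in 83.9%, 90.0% and 80.7% of wells at 3 weeks and in 45.5%, 62.1%, 65.6% and 63.0% at 16 weeks (exact permutation p = 0.0286, adjusted 0.0667). Among wells with reads the median was 74, 104 and 133 reads at 3 weeks and 13, 29, 27 and 52 at 16 weeks. Both the share of wells and the reads in such wells were thus lower at 16 weeks. Wells with at least 100 reads numbered 23 of 56, 27 of 60 and 30 of 57 at 3 weeks and 0 of 33, 5 of 29, 3 of 32 and 5 of 27 at 16 weeks. In the third 16-week sample 1 well gave 52.5% of all Apoe counts. The blank wells held 15 and 0 Apoe reads on the 3-week and the 16-week plate.

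**Figure D2:**
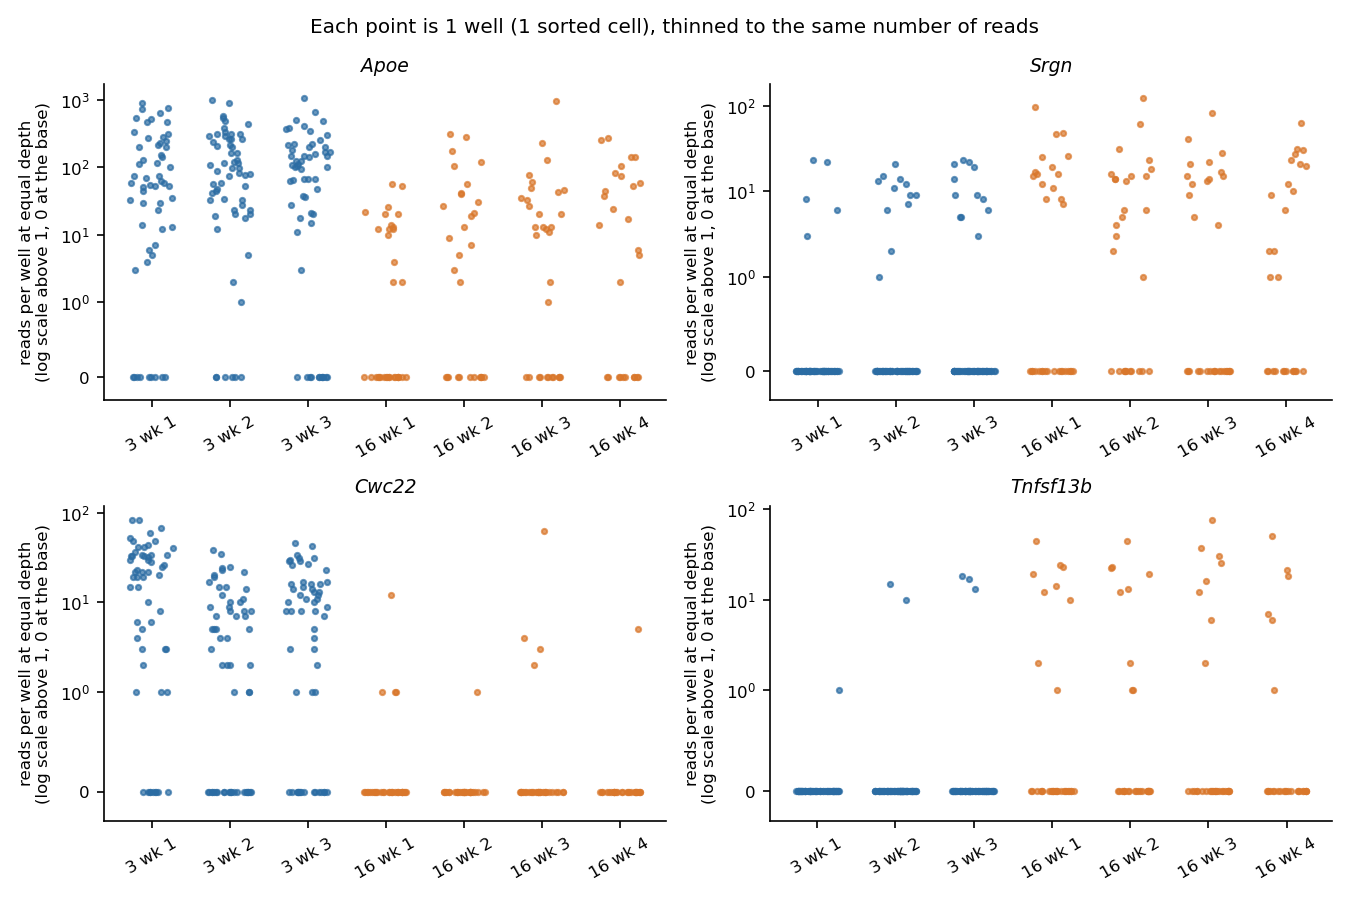
Reads per well (y axes, symmetric log scale that is linear below 1) of Apoe, Srgn, Cwc22 and Tnfsf13b in each of the 7 samples, 3 weeks in blue and 16 weeks in orange, every well thinned to 54941 reads; each point is 1 well and the x position within a sample is random. The 3-week samples hold 23 to 30 wells with at least 100 Apoe reads and the 16-week samples 0 to 5, and most 16-week wells lie at 0 for Cwc22.

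Genes of the state that microglia take in developing white matter were given as a list of 24. Of 22 tested, 3 had an unadjusted p under 0.05 and a lower level at 16 weeks, Apoe, the lipoprotein lipase gene Lpl and the lysosomal glycoprotein gene Cd68, and 1, the annexin gene Anxa5, a higher one. Lpl had 35.9, 42.1 and 72.9 CPM and then 4.62, 0, 8.30 and 17.1, and was read in 10.9% ± 3.50 and 1.71% ± 1.99 of wells. Cd68 went from 940 ± 119 to 681 ± 143 CPM with overlap. Several other members of the list were low at both ages: Gpnmb reached at most 1.97 CPM, Igf1 18.6, Lgals3 16.4, Clec7a 62.1 and Spp1 76.3 in any sample. Of the 22 tested, 12 were lower and 10 higher, and the list's median log2 change was -0.23. Of all genes tested, 245 were lower and 341 higher with an unadjusted p under 0.05. Of 20 tested genes of lipid uptake, efflux and storage, 16 were lower and 4 higher, with a median of -0.44, beside 5609 lower and 6450 higher among all 12060 genes. Beside Apoe and Lpl only Mylip, which encodes the ubiquitin ligase that degrades the LDL receptor, had an unadjusted p under 0.05, at 282 ± 67.4 and 499 ± 161 CPM (log2 0.82 ± 0.30). The transporter genes Abca1 and Abcg1 had means of 286 and 255 CPM at 3 weeks and 207 and 192 at 16 weeks, with overlap. Of 19 cholesterol synthesis genes, 12 were lower and 1, Sqle, had an unadjusted p under 0.05, at 6.32 to 10.4 and 0 to 1.15 CPM.

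**Figure D3:**
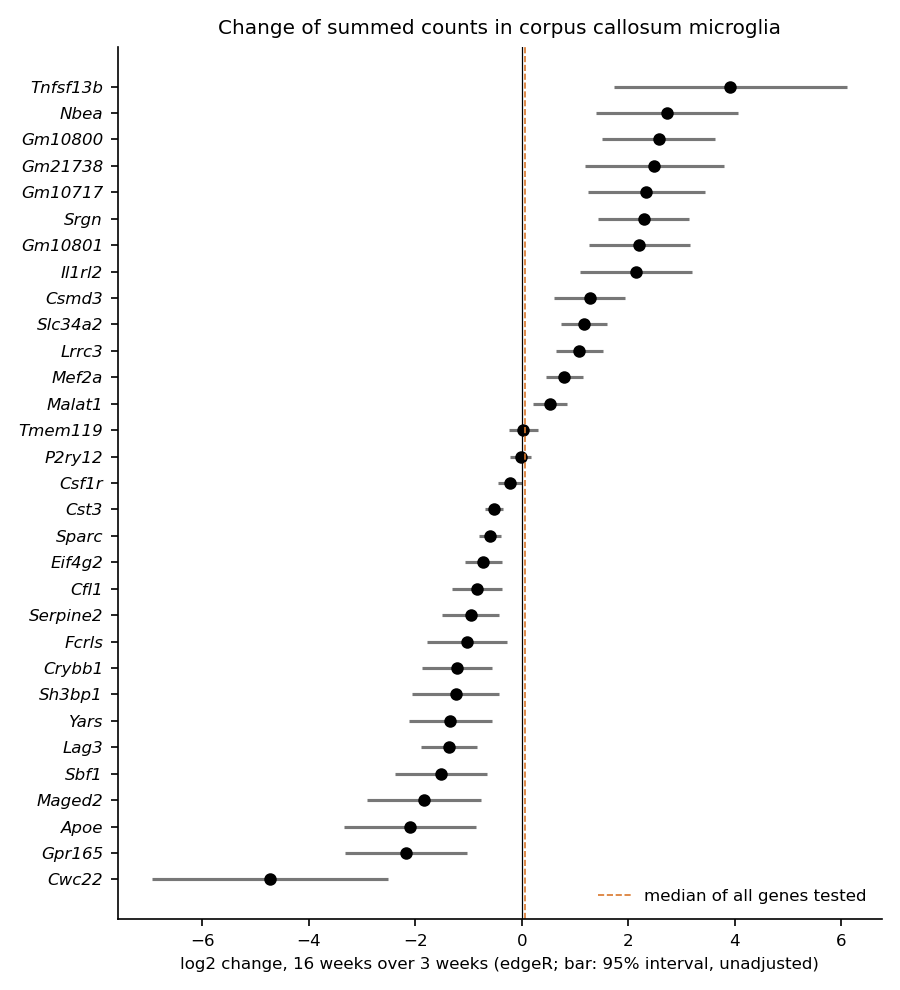
Log2 change from 3 to 16 weeks (x axis) with its unadjusted 95% interval (bars) from edgeR. Drawn are the non-overlapping genes of smallest p in either direction, those called in the share test, Apoe, Fcrls, Malat1 and 3 microglia markers. Tnfsf8, which had no read at 3 weeks, is not drawn. The dashed line marks the median of all genes tested, 0.06. Intervals of Cwc22 and Tnfsf13b are several log2 units wide, and those of P2ry12, Tmem119 and Csf1r span 0.

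Slc34a2, a sodium-phosphate cotransporter gene that adult microglia express, had the smallest p among the higher genes. Its samples had 981, 1380 and 1785 CPM at 3 weeks and 3325, 3159, 2750.5 and 3201 at 16 weeks, without overlap (log2 1.17 ± 0.19, edgeR p = 0.000157, adjusted 0.507). It was read in nearly every well at both ages, in 98.8% ± 2.03 and 99.2% ± 1.52. The 4 blank wells of the 3-week plate held 11615 reads of Slc34a2, 34.6% of their reads, and those of the 16-week plate held 0. Each of these 4 held 2000 to 4219, whereas the 179 kept corpus callosum wells of 3 weeks held 73915 together. An average 3-week cell well thus held fewer Slc34a2 reads than a blank well of its plate. How much of the Slc34a2 level in cell wells came from outside the cells was not tested. Mef2a, a transcription factor gene active in microglia, had 524, 535 and 483 CPM and then 879, 1020, 938 and 741 (log2 0.80 ± 0.16, edgeR adjusted p = 0.705). It was read in 90.1% of wells at both ages. Lrrc3, a leucine-rich repeat gene, had 157, 174 and 196 CPM and then 331, 415, 384 and 356 (log2 1.08 ± 0.20), and was read in 41.5% ± 6.58 and 61.9% ± 6.396 of wells. Csmd3, a gene of a large membrane protein with complement-like domains, had 147, 372 and 313 CPM and then 627, 662, 751 and 640.

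Among the remaining higher genes, few wells carried much of the signal. Nbea went from 11.97 ± 3.99 to 79.2 ± 42.3 CPM and was read in 7.41% and 14.1% of wells, with 1 well giving up to 71.4% of a 16-week sample. Il1rl2, the receptor of interleukin 36, went from 47.6 ± 20.96 to 210 ± 85.4 CPM, and 1 well gave 25.8% to 58.2% of each 16-week sample. Tnfsf8, the CD30 ligand gene, had no read at 3 weeks and 2.48 to 48.6 CPM at 16 weeks, of which 1 well gave 58.8% to 97.2%. Gm10800, Gm10801, Gm10717 and Gm21738 are predicted genes of repeat-like sequence whose reads may be shared among copies, so their levels are uncertain. Gm10800 had 1043, 462 and 563 CPM at 3 weeks and 2148, 5617, 2253 and 6358 at 16 weeks, and the other 3 had log2 changes of 2.21 to 2.49.

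The remaining lower genes of the sums were Eif4g2, a translation initiation factor gene (733 ± 28.8 and 444 ± 52.1 CPM), Gpr165, an orphan receptor gene on chromosome X (219 ± 97.7 and 48.3 ± 28.9), Cfl1, the actin-severing cofilin gene (279 ± 24.5 and 156 ± 12.6), Serpine2, a protease inhibitor gene (539 ± 91.995 and 277 ± 75.1), Sbf1 (107 ± 14.6 and 37.3 ± 12.1), the tyrosyl-tRNA synthetase gene Yars (119 ± 37.3 and 46.9 ± 4.77) and Maged2 (66.1 ± 16.1 and 18.5 ± 4.14). None passed in edgeR, with adjusted p = 0.865 for each of them. DESeq2 called all 12 of the higher genes named for their small p, and 10 of the 12 lower ones, all but Serpine2 and Yars.

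Because sums give a well with many reads a large weight, the share of wells with at least 1 read was tested as well, a test chosen after the sums had been examined. It used 56, 60 and 57 wells at 3 weeks and 33, 29, 32 and 27 at 16 weeks, each thinned to 54941 reads, and limma on the arcsine-root of the shares of 8984 genes. It called 4 genes (0.0445%), while 993 (11.1%) had an unadjusted p under 0.05, 77 higher and 916 lower. The median change over all genes was -2.75 percentage points, with 6402 lower and 2582 higher, so shares of single genes stand against a general shift downward.

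Cwc22 encodes a protein that joins the exon junction complex to the spliceosome. Its gene lies in a stretch of chromosome 2 that varies in copy number between mice, at 77881159 to 77946375 on GRCm38. Reads of Cwc22 were found in 83.9%, 63.3% and 71.9% of wells at 3 weeks and in 12.1%, 3.45%, 12.5% and 3.70% at 16 weeks. The ages were far apart, with a change of -65.1 points (limma adjusted p = 6.35e-07). In CPM the samples had 393, 115 and 206 and then 13.2, 0.383, 18.8 and 3.36. The 3-week samples varied among themselves, with the first the highest. In the second 16-week sample all Cwc22 counts came from 1 well. The edgeR log2 change was -4.72 ± 0.98 (adjusted p = 0.865).

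Srgn lies on chromosome 10 from 62493833 to 62527451. It was read in 8.93%, 20.0% and 21.1% of wells at 3 weeks and in 45.5%, 62.1%, 43.8% and 55.6% at 16 weeks, a change of 35.05 points (limma adjusted p = 0.0142). Wells with reads held a median of 8 to 10 Srgn reads at 3 weeks and 12 to 16 at 16 weeks. In CPM the samples had 24.1, 45.5 and 45.4 and then 171, 265, 169 and 144, without overlap (log2 2.29 ± 0.38, edgeR adjusted p = 0.507). Tnfsf13b, on chromosome 8 from 10006467 to 10039072, was read in 1 of 56, 2 of 60 and 3 of 57 wells at 3 weeks and in 9 of 33, 9 of 29, 8 of 32 and 6 of 27 at 16 weeks. The change was 22.9 points (limma adjusted p = 0.0124). Its CPM were 0.369, 7.47 and 12.5 and then 97.3, 107, 134 and 70.7, and 1 well gave 29.3% to 50.7% of each 16-week sample. Sh3bp1, on chromosome 15 from 78899667 to 78919517, was read in 71.4%, 70.0% and 75.4% of wells and then in 33.3%, 48.3%, 34.4% and 44.4%, a change of -32.2 points (limma adjusted p = 0.0455), at 204 ± 16.3 and 86.2 ± 37.0 CPM. Blank wells of both plates held no read of these 4 genes.

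The calls of Srgn, Tnfsf13b and Sh3bp1 depended on which samples and what depth were used. Without any 1 of the 3-week samples, or without the second 16-week sample, only Cwc22 passed. Srgn and Tnfsf13b still passed without the first, the third or the fourth 16-week sample, and Sh3bp1, of these, only without the fourth 16-week sample. With wells thinned to the 25th percentile of depth in place of the 10th, only Cwc22 passed, and limma adjusted p was 0.106 for Srgn, 0.132 for Tnfsf13b and 0.248 for Sh3bp1, with changes of 35.1, 22.2 and -33.1 points. With at least 10 reads required in a well, Cwc22 and Srgn passed. Leaving out the wells of plate columns 1 and 2, which held 30 of the 179 wells at 3 weeks and none at 16 weeks, the same 4 genes passed. The 12 genes next in order, 10 lower and 2 higher, shared a limma adjusted p of 0.126 and did not pass. Crybb1, Gpr165, Apoe, Lag3 and Serpine2 were among them, with changes of -34.6 to -25.3 points.

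**Figure D4:**
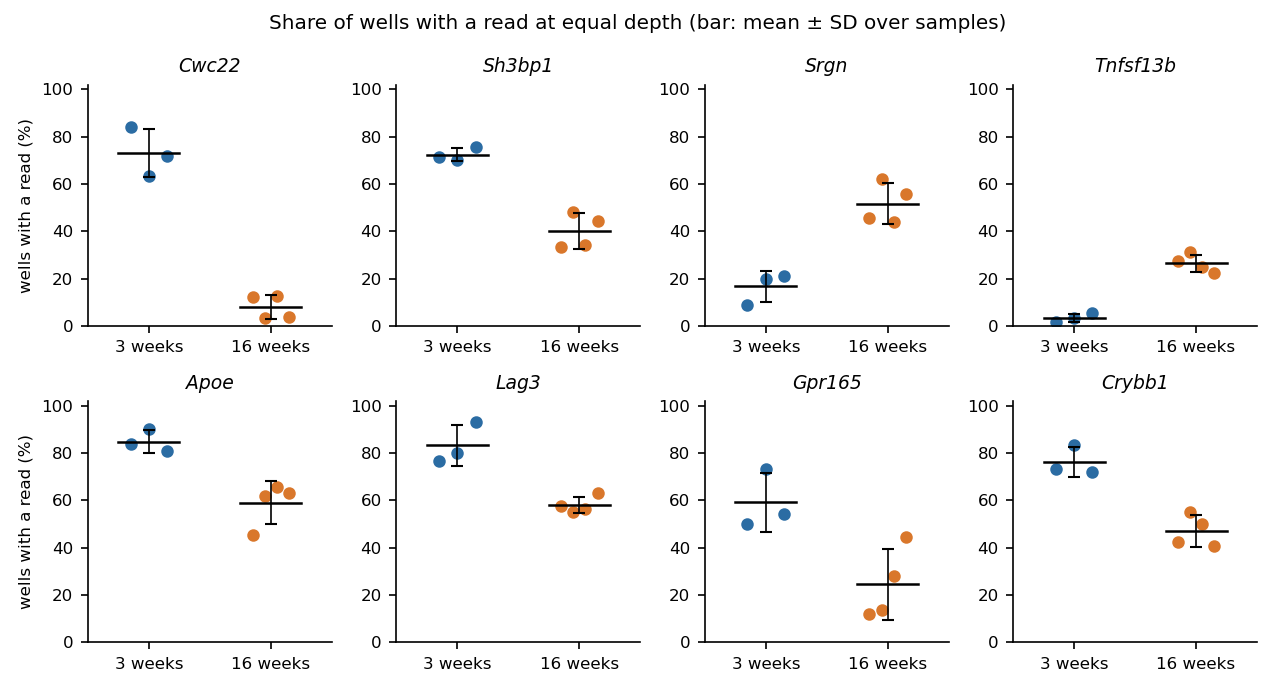
Percent of wells with at least 1 read at 54941 reads per well (y axes) for the 4 genes that passed and for Apoe, Lag3, Gpr165 and Crybb1, which did not; points are samples, and bars the mean and SD. In all 8 the samples of the ages do not overlap, and Srgn and Tnfsf13b are the 2 that are higher at 16 weeks.

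The other lists, also drawn up with earlier results known, were described by counts, and no member of any list passed in the sums. Their reference is all 12060 genes tested, of which 5609 were lower and 6450 higher. With an unadjusted p under 0.05, 245 of all genes were lower and 341 higher (4.86% together). The nuclear noncoding RNAs had 3 of 7 tested members at an unadjusted p under 0.05, all higher, and a median of 0.53. Malat1, which marks nuclear speckles, went from 2765 ± 175 to 3979 ± 686 CPM (log2 0.53 ± 0.14), Neat1, which builds paraspeckles, from 45.2 ± 10.6 to 98.9 ± 17.9, and Pvt1 from 6.54 ± 8.08 to 37.0 ± 16.8. Of 20 actin cytoskeleton genes, 3 had an unadjusted p under 0.05 and all 3 were lower: Cfl1, the profilin gene Pfn1 (346 ± 43.4 and 225 ± 19.9) and Actb (8306 ± 353 and 7274 ± 421). Of 15 purinergic and transport genes, Slc34a2 and P2ry13 had such a p, both higher. Of 23 transcription factor genes, Mef2a was higher and Zeb2, a factor that keeps macrophage identity, lower (335 ± 10.6 and 199 ± 53.3). Of 15 TGF-beta genes, 11 were lower, and Nrros, which anchors latent TGF-beta on microglia, was the 1 with such a p (498 ± 65.1 and 301 ± 72.0).

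Of 24 lysosomal genes, 17 were lower and 7 higher, with a median log2 change of -0.12, and 3 had an unadjusted p under 0.05: Ctsh, higher, and Ctsf and Cd68, lower. Ctsh, an aminopeptidase cathepsin gene, had 627, 717 and 626 CPM and then 1344, 1690, 920 and 1000 (log2 0.92 ± 0.22), and Ctsf, a cysteine cathepsin gene, 640, 470 and 546 and then 396, 173, 304 and 356 (log2 -0.85 ± 0.28). Neither of these 2 overlapped between the ages, and none of the 3 passed. Among 10 MHC class II genes tested, Ifi30, the lysosomal thiol reductase gene of antigen processing, went from 182 ± 30.7 to 290 ± 27.8 and H2-Ob, a modulator of peptide loading, from 53.4 ± 37.5 to 135 ± 70.3. The invariant chain gene Cd74 had 30.1, 16.9 and 71.2 CPM and then 11.6, 56.8, 22.9 and 791. The fourth 16-week sample stood alone, and 1 well gave 66.5% of its Cd74 counts. H2-Ab1 had 424 CPM in that sample and at most 74.7 in any other.

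Complement (11 tested), MHC class I (17), type I interferon (21), G2/M (11), glycolysis (15) and ribosomal protein genes (78) had no member with an unadjusted p under 0.05. The interferon-induced chemokine gene Cxcl10, singled out after its values were seen, had 265 CPM in the third 16-week sample, 43.2 in the third 3-week sample and 0 in the other 5. Of 17 chemokine and cytokine genes, 14 were lower and 3 higher, beside 5609 lower and 6450 higher among all genes. Tnfsf13b was the 1 of the 17 with such a p. Phagocytic receptor genes had 1 of 17, Havcr2, the receptor TIM-3, at 577 ± 61.5 and 818 ± 142 CPM. Immediate early genes had 4 of 21: Btg2 was higher (239 ± 33.0 and 404 ± 48.5), and Egr1, Rhob and Nr4a1 were lower. In each sample with Egr1 reads 1 well gave at least 92.2% of them, and Nr4a1 had 3.60 to 24.3 CPM at 3 weeks and no read at 16 weeks. Of 16 S phase genes, Dtl was higher and Ung lower, both under 6 CPM in every sample. Cycling was rare: 1.67% of wells of the second 3-week sample and none of the other 6 samples had reads of at least 5 of 20 G2/M genes (exact permutation p = 0.4286). Of 77 nuclear oxidative phosphorylation genes 1, Sdhb, was at such a p (215.9 ± 35.9 and 139 ± 28.3), and of 18 mitochondrially encoded genes mt-Rnr1 (464 ± 82.3 and 633 ± 40.3).

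Among markers of other cells, Csf3r of the neutrophil list went from 629 ± 140 to 984 ± 274 CPM and Ighm of the B cell list from 557 ± 85.2 to 965 ± 242, both with an unadjusted p under 0.05 and neither passing. Csf3r was the 1 neutrophil gene tested, and of the 3 B cell genes tested 2 were higher and 1 lower. Ighm reads were found in 64.2% ± 0.80 and 78.1% ± 6.27 of wells. The B cell gene Cd79a had no read in any of the 7 samples, which allows up to 0.0366 CPM, and Ms4a1 had none at 3 weeks and at most 0.383 CPM at 16 weeks. Nr4a1 stood on the monocyte list too, and Gad2 of the neuron list had at most 3.59 CPM.

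**Figure D5:**
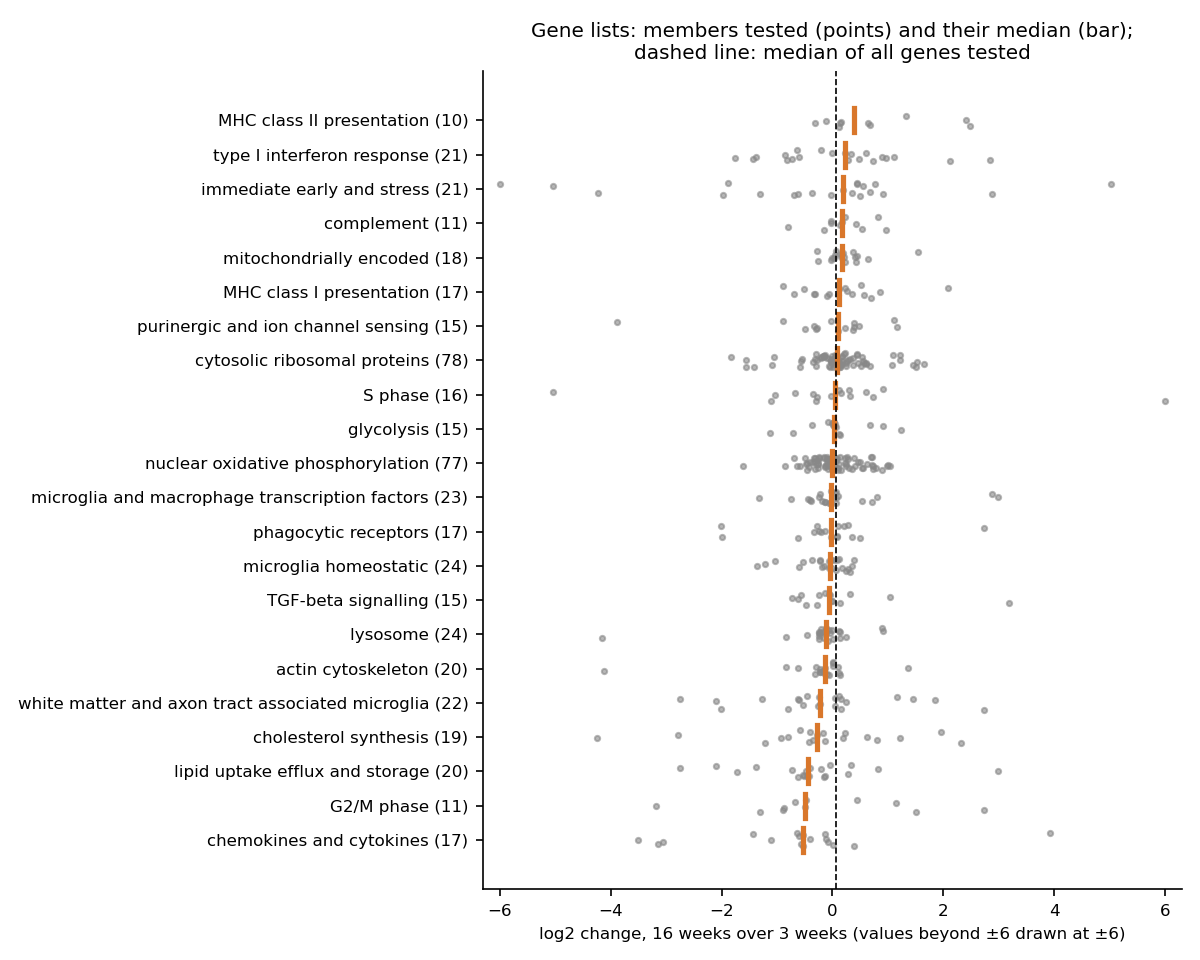
Log2 change from 3 to 16 weeks (x axis, values beyond 6 drawn at the edge) of the tested members (points) of each gene list with at least 10 tested members, given in brackets; the orange bar is the list's median and the dashed line the median of all genes. List medians lie between -0.53 for chemokines and cytokines and 0.39 for MHC class II presentation.

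The age change in corpus callosum was set against the mean age change in cortex, hippocampus, cerebellum and spinal cord in a fit of 35 samples. None of 19580 genes passed by edgeR (0.0%), 1229 (6.28%) had an unadjusted p under 0.05, and DESeq2 called 338, so nothing is called particular to corpus callosum. The log2 changes of the regions, each from its own fit and not independent where mice were shared, are given side by side. The CPM and overlaps given for regions are on a scale shared by all 51 samples of the series. For Srgn, Cwc22 and Apoe the ages did not overlap in any of the 5 regions. The log2 change of Srgn was 2.29 in corpus callosum, 3.25 in cortex, 3.55 in hippocampus, 1.5 in cerebellum and 1.59 in spinal cord. That of Cwc22 was -4.72, -2.60, -2.75, -4.01 and -3.68, and that of Apoe -2.10, -1.83, -1.44, -3.03 and -2.53. Sh3bp1 had -1.25 in corpus callosum, -0.93 in cortex and -0.85 in hippocampus, without overlap, but -0.05 in cerebellum and -0.31 in spinal cord, where the ages overlapped.

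Other genes were spread differently over the regions. Tnfsf13b had 65.8 to 132 CPM in corpus callosum at 16 weeks, 1.82 to 19.7 in cortex, 8.89 to 97.3 in hippocampus, 53.4 to 90.4 in cerebellum and 93.8 to 223 in spinal cord. At 3 weeks it had 0.375 to 12.8 CPM in corpus callosum, and its highest values were those of spinal cord, 29.5 to 47.5. The log2 change of Cst3 was -0.53 in corpus callosum, -0.73 in cortex and -0.61 in hippocampus, but 0.07 in cerebellum and 0.12 in spinal cord, where the ages overlapped. The difference of the corpus callosum change from the mean of the other 4 regions was -0.27 ± 0.10 (edgeR p = 0.0105, adjusted 0.584). Slc34a2 had a log2 change of 1.26 in spinal cord and 1.17 in corpus callosum but 0.21 in cortex, 0.14 in hippocampus and -0.05 in cerebellum (difference from the mean 0.75 ± 0.19, edgeR p = 0.000309, adjusted 0.584). Eif4g2 had the smallest p of the genes named here for that difference (log2 -0.75 ± 0.17, edgeR p = 9.23e-05, adjusted 0.584).

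One plate of the series held both ages, in different regions, 3-week spinal cord beside 16-week cortex, so that region and age cannot be told apart there but plate was shared. On it Cwc22 had 137 to 386 CPM at 3 weeks and 1.82 to 65.5 at 16 weeks, Srgn 55.7 to 84.0 and 129 to 187, and Apoe 2344 to 4238 and 452 to 769, without overlap. Tnfsf13b had 29.5 to 47.5 and 1.82 to 19.7, the opposite order to corpus callosum. Sh3bp1 overlapped on it, with 131 to 169 and 111 to 198 CPM, as did Cst3, with 31937 to 35656 and 30334 to 39427, and Lag3, with 361 to 488 and 404 to 491.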

How the data were processed

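Single sorted microglia were sequenced by SmartSeq2. The authors deposited 1 table of raw read counts per gene and well, for which the submitters' processing notes list STAR 2.5.2b, featureCounts 1.6.2 and the build GRCm38; multimapping and strand settings are not given in the sources used here. It holds 48587 gene rows, 92 spike-in rows and 2688 wells on 7 plates. In the deposited table, columns 1 and 2 of each plate also contain the counts of same-row wells whose names start alike (columns 10 to 19 and 20 to 24); these were subtracted, which left 0 of 1956668 values below 0. Wells with at least 500 genes and at most 20% mitochondrial counts were kept, with no doublet call, and summed per replicate.

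The test of sums was the robust quasi-likelihood F test of edgeR 4.0.16 in R 4.3.3 (filterByExpr, TMM; two-sided). P-values were adjusted after Benjamini and Hochberg over every gene tested, with 0.05 as threshold. CPM refers to the TMM-scaled library. Shares of wells were tested with limma 3.58.1 (trend, robust; mean share 5% to 98%) at 54941 reads per well, the 10th percentile. Both were tested on simulated data. The share test found 4, 21, 49 and 50 of 50 genes lowered by 10, 20, 30 and 40 points. Its simulated samples differed only by the random draw of wells and had no general shift downward. It may therefore find fewer such genes in the real data. Well measures were compared by exact permutation over 35 splits.

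Members, gene lists and the share test were chosen with earlier results of these data known. Genes named are all that passed, up to 12 in each direction with the smallest p, a mean of at least 10 CPM and no overlap between ages, up to 3 members per list, sorting antigens, identity genes and genes that earlier results named; others were singled out after their values were seen. Alternatives were other scalings, DESeq2 1.42.0, filters, well sets, fits and left-out samples.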

Additional observations from a re-analysis of the deposited data

Results flagged for a closer look

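In 6 of 71 groups of 4 samples examined, 1 sample at 16 weeks lay far from the others; about 1 in 20 such groups does so by chance. They were the fourth sample for Sparc (6390 CPM), Cd74 (790.5), Zeb2 (277.8) and Itgam (1549), the third for Pfn1 (254.8) and the second for Csf1r (16770). One well gave 66.5% of the Cd74 counts of that sample.

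Some genes without overlap between ages in corpus callosum moved the opposite way, also without overlap, in another region; these differences between single regions were not tested. In cerebellum Gm10800 had mean levels of 4052 CPM at 3 weeks and 659.8 at 16 weeks, Gm10801 of 1428 and 233.2, Gm10717 of 242.8 and 40.7, and Gm21738 of 174.5 and 29.33, all being higher at 16 weeks in corpus callosum. Eif4g2, lower at 16 weeks in corpus callosum, had 527.5 and 634.3 CPM in cortex and 578.3 and 714.5 in hippocampus. Ifi30, higher at 16 weeks in corpus callosum, had 286.2 and 155.3 CPM in cortex and 279.7 and 137.0 in hippocampus. Nrros, lower at 16 weeks in corpus callosum, had 453.1 and 576.2 CPM in cortex.

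Wells without a cell carried reads. The fullest of the 4 blank wells on the plate of the 3-week samples held 20404 gene counts, and the 4 together held 11615 reads of Slc34a2, while the blank wells of the 16-week plate held 10 to 71 gene counts and no Slc34a2 read.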

How the results depend on the processing

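For the sums, 0 genes passed in the reported fit, with RLE factors, with the replicate block (498 at an unadjusted p under 0.05), in the counts as deposited, without plate columns 1 and 2, with stricter wells and with thinned wells. All sorted wells gave 1 (Apoe), no filter 32, DESeq2 75, 1 fit of all 51 samples 8 (all lower; Cst3, Sparc, Cwc22 and Sh3bp1 among them) and a plate term with 1 age change for 5 regions 8 (all higher: Slc34a2 and 7 predicted genes). Leaving out 1 sample gave 0 to 1. For the difference from 4 regions, counts as deposited and thinned wells gave 1 each (Rn18s-rs5), no filter 19, DESeq2 338 and the replicate block 0. RLE factors and DESeq2 moved the median of all genes from 0.06 to 0.12.

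The share test gave 4 genes, 2 with at least 10 reads in a well (Cwc22, Srgn), 1 at the 25th percentile of depth (Cwc22), 76 in the counts as deposited (75 lower; Cwc22 and Sh3bp1 among them), 13 with the replicate block and 1 to 8 without 1 sample. Cwc22 passed in each of these. The labels do not say that replicate numbers pair the ages, and this was not tested. Deviations of same-numbered samples correlated at 0.0253, 0.00870 and 0.0167, and those of differently numbered samples at -0.0156 to 0.0189.

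The G2/M percent changed sign in wells not thinned (0.157 points higher at 16 weeks), and the mitochondrial percent difference ran from -0.0908 to 0.2544 points without 1 sample. Of 1205 log2 changes of 67 named genes under the alternatives, 1122 kept direction and call, 54 newly passed and 29 changed sign, all in 11 genes. Cd74 had -0.51 with the replicate block and -0.37 (without the fourth 16-week sample) to 3.2 without 1 sample. With the plate term Zeb2 had 0.23, P2ry13 -0.06, Trf 0.11, Ptprc -0.01, Tmem119 -0.21, Cx3cr1 -0.38, Olfml3 -0.44 and Mki67 -6.97. Without 1 sample Trf had -0.41 to 0.04. Itgam had 0.05 as deposited, 0.03 with RLE and DESeq2 and -0.13 to 0.02 without 1 sample. P2ry12 had 0.04 with RLE and DESeq2 and -0.11 to 0.01 without 1 sample. Tmem119 had -0.01 without columns 1 and 2 and thinned, -0.05 unfiltered, -0.09 in the fit of 51 and -0.03 to 0.11 without 1 sample. Cx3cr1 had -0.02 unfiltered, -0.03 with the replicate block, -0.07 in the fit of 51 and -0.03 to 0.12 without 1 sample. Depth limits the 16-week samples most, with 27 to 33 wells at equal depth.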
